A study of Mus musculus with 374 samples.

Results

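The B lymphocytes of this dataset were marrow cells sorted one to a well, and the cell sorter recorded the size-related light signal of every cell (forward scatter, area) together with its well. The 43 B lymphocyte wells of plate rows A and B, with well A8 left out, were ranked on forward scatter. The 14 highest wells (large) were set against the 14 lowest (small), which makes 28 of the 374 wells of the whole dataset, and the 15 wells between them (middle) were kept for reference. The groups were chosen by forward scatter, which is therefore no finding. It ran from 63424 to 70464 instrument units in the small wells, from 71104 to 76544 in the middle wells and from 76544 to 87872 in the large wells. The last small well was B23 (70464) and the first well outside was A16 (71104). At the upper border B3 and B11 had the same value (76544), and B3 was taken as large because its forward scatter height was greater (67200 against 66304). All B lymphocytes came from 1 untreated C57BL/6 female aged between 10 and 13 weeks. The gate required B220 and low forward scatter, so that the large cells here were the upper end of a gate on small cells. T lymphocytes from the thymus of the same animal, and granulocytes, erythroblasts and progenitor/stem cells (LSK) from its marrow, filled the rest of the plate.

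B lymphocytes are made in the marrow in steps that alternate between division and gene rearrangement. A precursor that has assembled a heavy chain pairs it with the surrogate light chain (Igll1 with Vpreb1 or Vpreb2), divides as a large pre-B cell, then leaves the cell cycle as a small pre-B cell and expresses Rag1 and Rag2, the recombinase that cuts the light chain loci. Immature B cells with a complete receptor follow, and mature B cells that return to the marrow from the blood carry more B220 and MHC class II. The comparison of large with small cells asks which of these programs went with cell size.

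Each well held counts of unique molecular identifiers (UMIs, 1 for each captured mRNA molecule). The 14 large wells were 1 sample and the 14 small wells another, from 1 mouse and 1 plate, so there is no replicate of either group and no test between them. Intervals in brackets are exact 95% intervals for counting error only, except those of shares of wells, which are for the draw of cells. Log2 ratios are of summed UMI counts scaled to the UMIs on mouse genes (CPM), large over small. Transcripts of DNA replication stood out in 3 of the 14 large wells, and the other 11 were at the level of the small wells. Whether these transcripts came from B lymphocytes was not tested, and the small well A4 held 83 UMIs of G2 and mitosis genes. The label of cycling precursors against resting cells is therefore not used, and the groups are called large and small. As a check of the sort, 523 UMIs of 7 B lymphocyte markers were counted in the large wells and 366 in the small wells (log2 ratio 0.09, -0.10 to 0.29). Well B6 (small) held none of them, with 485 mouse UMIs in all, 90 of them from 7 erythroblast markers and 19 from granulocyte markers. Well A4 (small) was the deepest, at 8330 UMIs, and alone gave 21.7% of the UMIs of the small group. Gm42418, which lies over a ribosomal RNA gene and whose count is uncertain, made up 22.4% of the mouse UMIs in the large and 22.7% in the small wells.

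Large cells gave more UMIs. The mouse UMIs per well ran from 1662 through a median of 3666 to 5953 in the large wells, had a median of 2847 in the middle wells, and ran from 485 through 2078 to 8330 in the small wells. The groups overlapped, but 13 of 14 large wells lay above the median of the small wells. The mean was 1.34 times higher in the large wells. The synthetic ERCC spike-in RNAs had a lower median in the large wells (387 UMIs against 446.5). Their mean was slightly higher there (410.8 against 403.0, with 26 in the small well B6). Per ERCC UMI, 8.94 mouse UMIs were counted in the large wells against 6.80 in the small wells. The log2 ratio of mean UMIs was 0.94 in plate row B and -0.18 in row A, which holds A4. The median number of genes with a UMI was 1560.5 in the large and 1176 in the small wells. Over the 43 wells the Spearman correlation of forward scatter with mouse UMIs was 0.40, as a description of wells that share 1 plate.

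**Figure D1:**
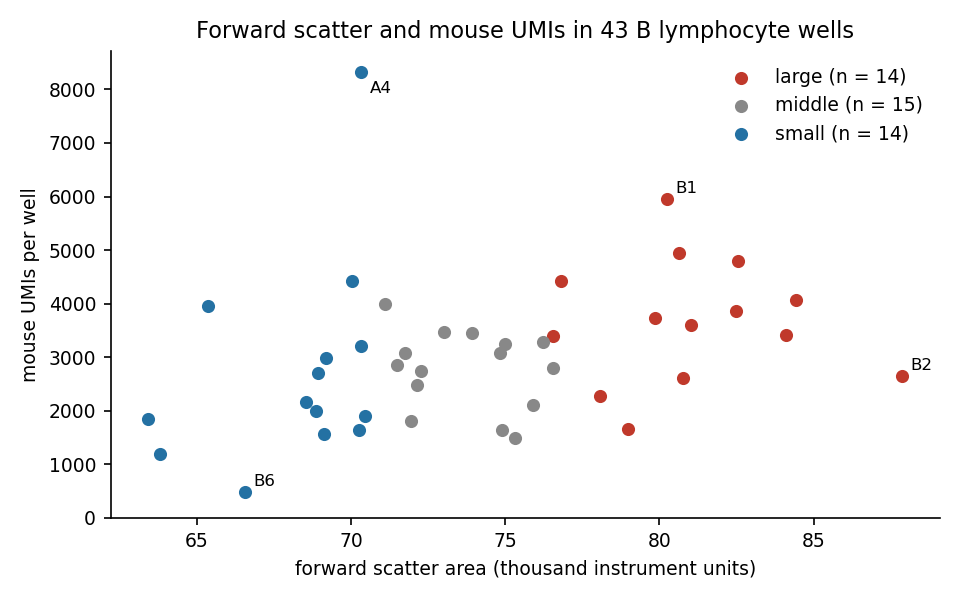
Mouse UMIs per well (y axis) against forward scatter area in instrument units (x axis, values divided by 1000) for the 43 ranked B lymphocyte wells, 1 point a well, coloured by group. The large wells sit between 1662 and 5953 UMIs, and the small wells hold both the shallowest well (B6, 485) and the deepest (A4, 8330).

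Among the surface proteins recorded in the sort, CD44, an adhesion receptor for hyaluronan, went with size. Its fluorescence ran from 1046 through a median of 2233.5 to 3811 in the large wells and from 447 through 1460.5 to 2892 in the small wells, with a median of 1804 in the middle wells. A total of 13 of 14 large wells lay above the median of the small wells. The Spearman correlation with forward scatter was 0.47 over 43 wells, and both signals were read from the same cell in the same pass. The medians of B220 were close (1098.5 and 1077.5). The transcripts of the antigens could not show this: Cd44 had 2 UMIs in the large and 1 in the small wells, Ly6a, the gene of Sca-1, had 6 and 2, and Kit had 1 and 1. Ptprc, which encodes B220, had 40 UMIs in the large and 19 in the small wells (log2 ratio 0.65, -0.17 to 1.52).

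Genes of S phase and DNA replication were higher in the large wells, and 3 wells carried the difference. The list had 208 UMIs in the large, 96 in the middle and 43 in the small wells, or 4048 CPM (3516 to 4637) against 1120 CPM (811 to 1509) in the small wells, a log2 ratio of 1.85 (1.37 to 2.36). Of 46 symbols 45 had a row in the counts and 41 had a UMI in either group, 36 of them higher in the large wells and 5 higher in the small wells. Of all 9560 genes with a UMI, 50.2% were higher in the large wells. Among the 20 members with at least 5 UMIs the median log2 ratio was 0.90, beside -0.07 over the 3349 genes of that depth. Wells A11 (51 UMIs), B18 (46) and B21 (65) held 77.9% of the list's UMIs in the large wells. The other 11 large wells held 46 in all, and without those 3 wells the log2 ratio was 0.02 (-0.61 to 0.66). The 3 wells were chosen after their counts were seen, so that a lower ratio without them was built in. As a share of the mouse UMIs the list ran from 0.0226% through a median of 0.152% to 1.80% in the large wells and from 0.0452% through 0.123% to 0.365% in the small wells. The medians were thus close, and the 3 named wells were the 3 that lay above every small well.

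The members named here have different parts in DNA replication, and no order among them was measured. Pcna, the sliding clamp that holds DNA polymerase on its template, had 19 UMIs in 5 large wells (8 of them in B21) and 4 in 4 small wells, a log2 ratio of 1.83 (0.24 to 3.84) that was 1.14 without B21. Mcm6, a subunit of the helicase that opens the origins, had 12 UMIs in 4 large wells and 1 in the small wells. Rrm1, the large subunit of ribonucleotide reductase, had 11 UMIs in the large wells and none in the small wells. With the small sum set to a floor of 3 UMIs this is 2.74-fold higher, a value that leaves out counting error. Uhrf1, which guides maintenance methylation of new DNA, had 12 and none (2.99-fold higher with that floor). Lig1, the ligase that joins Okazaki fragments, had 10 and none (2.49-fold with that floor). Single wells moved both values: without B21 the floored log2 ratio of Uhrf1 fell from 1.58 to 0.68, and without B18 that of Lig1 fell from 1.32 to 0.65. Dck, which phosphorylates salvaged deoxynucleosides, was spread more widely, with 12 UMIs in 10 large wells, at most 2 in any of them, against 2 in 2 small wells. Dnmt1, the maintenance methyltransferase, was close to even at 6 and 4 UMIs.

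The G2 and mitosis list was higher in the large wells in sum, but the direction hung on single wells on both sides. It had 350 UMIs in the large, 202 in the middle and 174 in the small wells (log2 ratio 0.59, 0.32 to 0.86). A total of 51 of its 59 members in the table had a UMI, 34 higher in the large and 17 higher in the small wells. Of all 9560 genes with a UMI, 50.2% were higher in the large wells. Among the 29 members with at least 5 UMIs the median log2 ratio was -0.01, near the -0.07 over the 3349 genes of that depth. Well A11 held 162 of the 350 UMIs, B21 held 81 and B18 held 32. Well A4 held 83 of the 174 in the small wells. The log2 ratio was -0.17 without A11, 1.17 without A4, and -1.29 (-1.70 to -0.89) without A11, B18 and B21. Those 3 wells were chosen after the data were seen and left the large side only, while A4 was kept. A lower ratio was therefore built in. The share of mouse UMIs ran from 0.0377% through a median of 0.181% to 3.37% in the large wells and from 0.0608% through 0.266% to 1.24% in the small wells, so that the median was lower in the large wells while the highest 2 of all wells were large.

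Top2a, the topoisomerase that untangles sister chromatids, had the highest log2 ratio of the genes that met the naming rule. It had 42 UMIs in 7 large wells, 14 in 8 middle wells and 5 in 5 small wells (2.65, 1.31 to 4.34), with 15 in A11, 15 in B21 and 6 in B18. In contrast to Top2a, Mki67, the proliferation antigen of the chromosome surface, was near even at 44 and 39 UMIs (-0.25, -0.90 to 0.41). Of these, 20 of the large wells' UMIs were in A11 and 28 of the small wells' UMIs were in A4, and without A4 its log2 ratio was 1.23. Tuba1b, an alpha-tubulin, had 27 UMIs, all in A11, B21 and B18, against 1 in the small wells. Stmn1, which destabilises microtubules, had 28 UMIs in 3 large wells and 6 in 2 small wells. Hist1h2ap, a replication-dependent histone gene whose reads cannot be told from those of near-identical copies, had 54 and 11 UMIs, with 42 of the 54 in A11, and its log2 ratio of 1.87 was -0.15 without that well. A11 thus held replication, histone and mitosis transcripts together, B18 and B21 held more replication transcripts relative to mitosis transcripts than A11 did, and A4 held mitosis transcripts (83 UMIs) with 4 UMIs of the replication list.

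**Figure D2:**
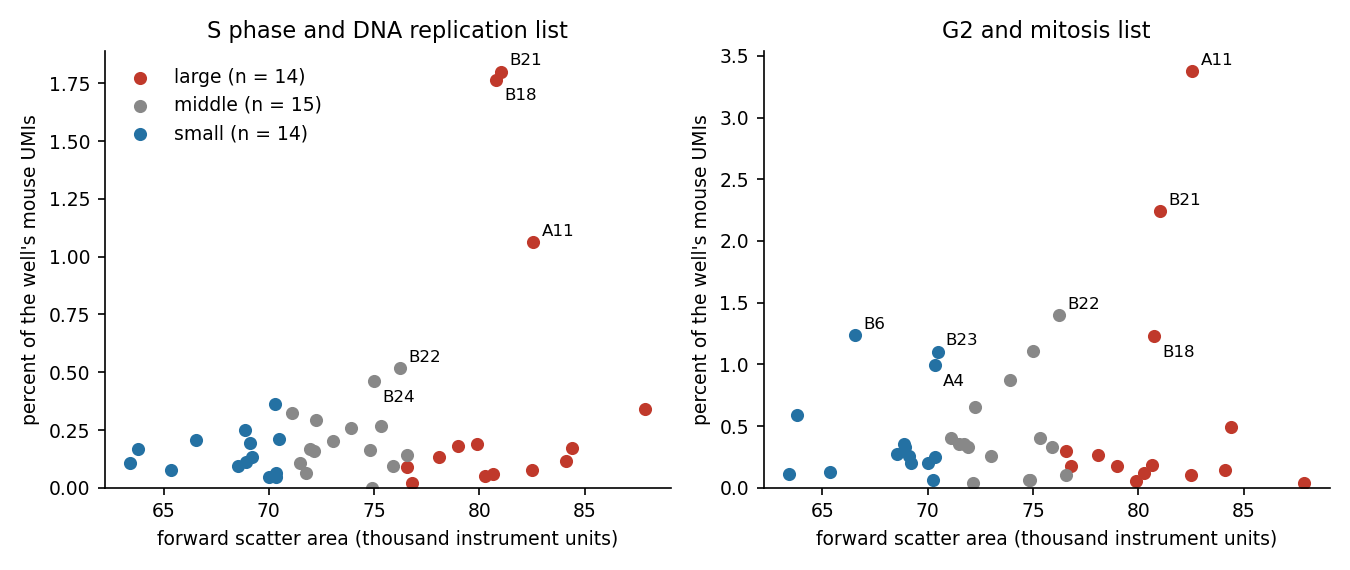
Share of each well's mouse UMIs on the S phase and DNA replication list (left) and on the G2 and mitosis list (right), in percent (y axes), against forward scatter area (x axes), 1 point a well. On the left A11, B18 and B21 stand above all other wells, and the other large wells lie among the small ones. On the right A11 reaches 3.37%, and the small wells A4, B6 and B23 lie at 1.00% to 1.24%.

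The upstream sequences of a mitosis gene and of a replication gene are shown because the 2 lists differ in the motifs of their promoters. Each is the 200 bases before the RefSeq start of the gene (GRCm38.p6), on the gene's strand, with motifs in capitals on either strand: the cell cycle homology region TTTGAA (reverse TTCAAA), the CCAAT box (reverse ATTGG) and the E2F site, searched as TTCCCGC, in which the pair of letters after TT could also be CG, GC or GG. Top2a is a protein-coding gene of the minus strand at chr11:98992943-99024189 in GENCODE M21 (GRCm38), and its window is chr11:99024190-99024389. Mcm6 lies on the minus strand at chr1:128331590-128359664, and its window is chr1:128359706-128359905.
Top2a: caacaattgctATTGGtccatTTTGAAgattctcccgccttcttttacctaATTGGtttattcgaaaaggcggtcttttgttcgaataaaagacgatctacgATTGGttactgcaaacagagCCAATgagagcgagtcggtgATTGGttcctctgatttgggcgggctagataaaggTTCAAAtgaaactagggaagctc
Mcm6: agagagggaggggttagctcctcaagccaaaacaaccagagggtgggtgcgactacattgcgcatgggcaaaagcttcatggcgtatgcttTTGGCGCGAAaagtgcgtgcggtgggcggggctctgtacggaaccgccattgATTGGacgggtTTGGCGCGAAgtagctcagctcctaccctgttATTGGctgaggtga
Top2a has 5 CCAAT boxes and 2 TTTGAA motifs. Mcm6 has 2 CCAAT boxes and 2 stretches in which a forward and a reverse E2F site overlap. Single genes vary: the 200 bases before Pcna have a CCAAT box and no E2F letters. Those before Mki67 have an E2F site beside TTTGAA. In windows from 250 bases before to 50 after the start, TTTGAA was in 39 of 51 windows of G2 and mitosis genes (76.5%), 7 of 43 windows of S phase genes (16.3%) and 17.9% of all 32851 windows. An E2F sequence was in 51.2% of the S phase windows, 23.5% of the G2 and mitosis windows and 9.57% of all windows, and a CCAAT box was in 55.8%, 74.5% and 37.4%. These are matches of letters, and no binding was measured.

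Transcripts of erythroblasts, which divide and were sorted on the same plate, moved with some of these values. The 7 erythroblast markers had 1120 UMIs in the large wells (21796 CPM), 1834 in the middle wells (44180 CPM) and 953 in the small wells (24831 CPM), mostly from the haemoglobin genes. The log2 ratio was -0.19 (-0.31 to -0.06), and 0.22 without B23. All 7 had a UMI in the B lymphocytes, and their share ran from 0.974% to 6.43% of the mouse UMIs in the large wells and from 0.624% to 18.6% in the small wells. Wells B18 to B24, a run at the end of row B, had shares of 4.84% to 14.1%, against 1.23% in B17. Outside this run A22 (7.83%), B10 (6.45%) and B6 (18.6%) were also high. Without B19 to B24, with B18 kept, the log2 ratio was 1.54 for the S phase list and 0.44 for the G2 and mitosis list. The part of plate position was not tested. In the 96 erythroblast wells, 4.07 UMIs of the S phase list and 12.3 of the G2 and mitosis list were counted for every 100 UMIs of these markers. At those ratios the markers in the small wells go with 38.8 S phase UMIs, beside 43 counted, and with 118 G2 and mitosis UMIs, beside 174 counted. The markers in the large wells go with 45.6 S phase UMIs, beside 208 counted, and 138 G2 and mitosis UMIs, beside 350. Well A11 had 54 marker UMIs, which go with 2.20 S phase and 6.67 G2 and mitosis UMIs, beside 51 and 162 counted. In B18 the markers go with 5.13 S phase UMIs (46 counted) and in B21 with 9.45 (65 counted). In A4 they go with 6.42 G2 and mitosis UMIs (83 counted). B23 among the small wells and B19 among the large wells were high in markers (269 and 218 UMIs) and had fewer list UMIs than these ratios give. B21 also had the lowest B220 fluorescence of the 43 wells (358), 12 UMIs of B lymphocyte markers and no Vpreb3. Whether the cell cycle transcripts of any well came from a B lymphocyte was not tested.

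**Figure D3:**
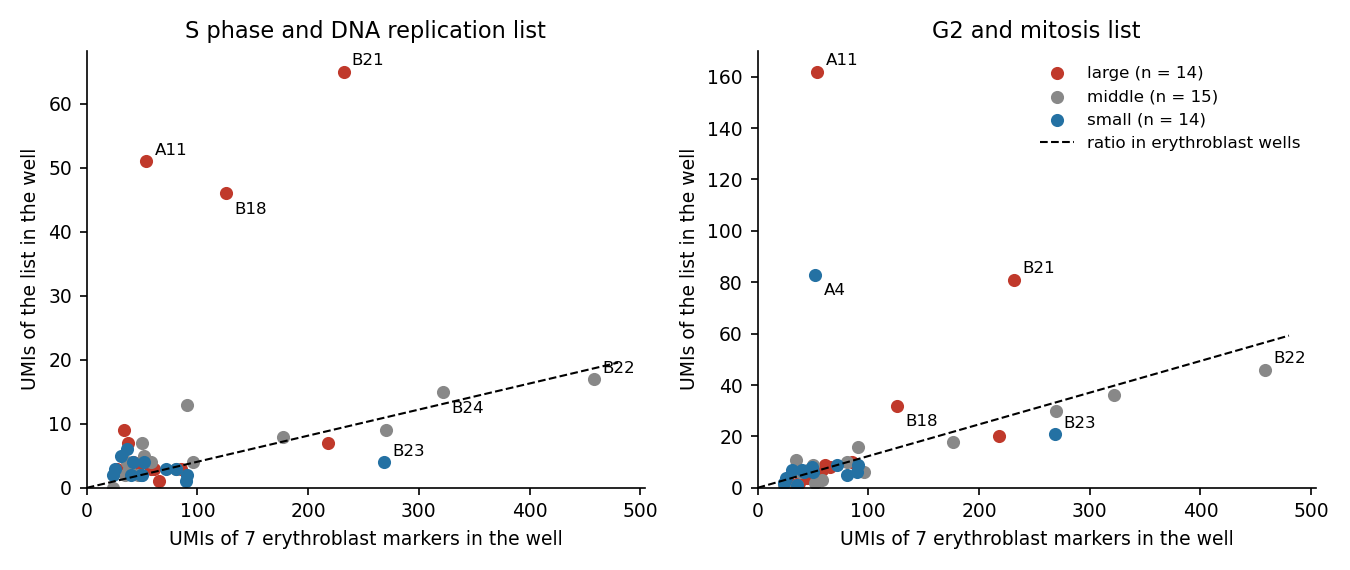
UMIs of the S phase and DNA replication list (left) and of the G2 and mitosis list (right) in each of the 43 wells (y axes) against the UMIs of 7 erythroblast markers in the same well (x axes). The dashed lines are the ratios in the 96 erythroblast wells (4.07 and 12.3 per 100); A11, B18 and B21 lie far above the line in the left plot, A11 and A4 in the right one, and B22 and B23 below both.

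A list with the cyclins that drive G1 differed as well, mostly through Ccnd3. The list of cyclins and Myc, which also holds their kinases, had 50 UMIs in the large, 32 in the middle and 16 in the small wells (log2 ratio 1.22, 0.39 to 2.13), and 0.93 (0.02 to 1.89) without A11, B18 and B21. Its member with the most UMIs was Ccnd3, the D cyclin on which pre-B cell division depends, with 30 UMIs in 11 large wells, 19 in 11 middle wells and 7 in 7 small wells (1.68, 0.46 to 3.11). The highest well was B18 with 8, and every small well that had Ccnd3 had 1 UMI. Ccnd3 is not restricted to B lymphocytes: it was in 82.3% of erythroblast wells and 69.8% of granulocyte wells. Ccnd2 had 7 UMIs in the large wells, all in B17, and none in the small wells, and the kinases Cdk4 and Cdk6 had 6 and 3 UMIs and 5 and 4 UMIs. E2f2, an E2F transcription factor, was chosen after its values were seen and had 26 UMIs in 11 large wells against 6 in 4 small wells (1.69, 0.38 to 3.27; the floored ratio was 2.57 without A12).

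Rag1 went the other way and, of the genes that met the naming rule, had the lowest log2 ratio. It had 12 UMIs in the large, 38 in the middle and 39 in the small wells, or 234 and 1016 CPM in the large and small wells, a log2 ratio of -2.12 (-3.19 to -1.16). Among the small wells, B15 held 10 UMIs, A12 and A4 held 7 each, B5 held 5, B8 held 4, B13 held 3, A15 held 2, B23 held 1, and 6 had none. Among the large wells, B1 held 5, A17 held 3, and A3, A11, B3 and B19 held 1 each, and 8 had none. No single well decided it: leaving out each in turn moved the log2 ratio between -2.72 (without B1) and -1.77 (without B15). The middle wells were at the level of the small wells, with 38 UMIs in 10 of 15. Rag1 was detected in 6 of 14 large wells (42.9%, exact binomial interval 17.7% to 71.1%) and 8 of 14 small wells (57.1%, 28.9% to 82.3%), although the large wells were deeper (median 3666 against 2078 UMIs). These intervals are for the draw of cells from 1 mouse, and cover neither UMI counting nor other mice. At 1000 UMIs a well the expected shares were 17.4% and 50.3%. In granulocytes, which do not rearrange their receptor genes, it was in 0 of 96 wells (median 3880 UMIs), which allows a share of up to 3.13% by a floor of 3 wells (exact binomial upper limit 3.77%), and in the erythroblasts in 3 of 96. Its partner Rag2 had 2 and 1 UMIs and Dntt, which adds bases at the joints, 3 and 1, too few to compare. The recombination list of these 3 genes had a log2 ratio of -1.69 (-2.60 to -0.84), with -1.24 in row A and -2.13 in row B.

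Rag1 is a protein-coding gene of the minus strand at chr2:101638282-101649501. The 200 bases before its RefSeq start (chr2:101649533-101649732) are shown for comparison with the cell cycle promoters, with the same motifs in capitals and, in addition, the E boxes CAGGTG and CAGCTG, letters read by the E proteins of B lymphocytes.
Rag1: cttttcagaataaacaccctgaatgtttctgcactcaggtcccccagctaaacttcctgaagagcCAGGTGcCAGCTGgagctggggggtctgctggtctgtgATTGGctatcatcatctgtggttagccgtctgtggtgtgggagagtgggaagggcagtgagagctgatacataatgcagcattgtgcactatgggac
The window has both E boxes next to each other and 1 CCAAT box in reverse, and no TTTGAA or E2F letters. Either E box sequence was in 32.9% of all windows.

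The surrogate light chain had too few UMIs to compare. Igll1 had 2 UMIs in the large wells and none in the small wells, Vpreb1 had 1 and 1, and Vpreb2 was not analysed here. Vpreb3, a related protein of the endoplasmic reticulum that stays on after the surrogate light chain is gone, made up nearly all of the list: 87 UMIs in 11 large wells, 67 in 12 middle wells and 47 in 10 small wells (log2 ratio 0.47, -0.06 to 1.01). The interval held 0. Early B lineage genes, such as transcription factors and receptor adaptors, were near even, at 775 and 634 UMIs (-0.13, -0.28 to 0.02). Ebf1, a founding transcription factor of the lineage, had 24 and 11 UMIs, Il7r, the receptor for the growth factor of precursors, 20 and 12, and Foxo1, an activator of the Rag genes, 19 and 22. Each of their intervals held 0. Xrcc6, a DNA end-binding protein of end joining, had 12 and 23 UMIs (-1.36, -2.50 to -0.29), with 10 of the 23 in A4.

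Ighm was even between the groups, whereas kappa transcripts were higher in the large wells and the few lambda transcripts higher in the small wells. The heavy and light chain constant genes together had a log2 ratio of 0.07 (-0.13 to 0.27). Ighm, the constant region of IgM, had 259 UMIs in the large and 193 in the small wells (log2 ratio 0.00, -0.27 to 0.28) and was in 14 and 13 wells. Igkc, the kappa constant region, had 214 UMIs in 14 large wells, 121 in 14 middle wells and 111 in 11 small wells (0.53, 0.19 to 0.87). Iglc1, a lambda constant region, had no UMI in the large wells, 17 in 3 middle wells and 17 in 6 small wells. With the large sum set to a floor of 3 UMIs this is 7.59-fold lower than in the small wells, a value that leaves out counting error. Well B13 held 10 of the 17, and without it the floored log2 ratio was -1.73. Iglc3 had 10, 23 and 17 UMIs in the large, middle and small wells (-1.19, -2.48 to 0.02; -1.82 without A14). All 14 large wells had more Igkc than Iglc1 and Iglc3 together, as did 13 of 15 middle wells and 10 of 14 small wells. Lambda UMIs outnumbered those of Igkc clearly in the small well B13 (12 against 0) and the middle well A10 (13 against 0), and by 1 or 2 UMIs in A12 (1 against 0), B15 (4 against 3) and B9 (7 against 5). The lambda constant genes are near copies of each other, so that the split of reads between them is uncertain. Granulocytes do not make immunoglobulin, and 37 of their 96 wells had a UMI of Ighm (38.5%) and 24 a UMI of Igkc (median 3880 mouse UMIs), against none for Iglc1.

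**Figure D4:**
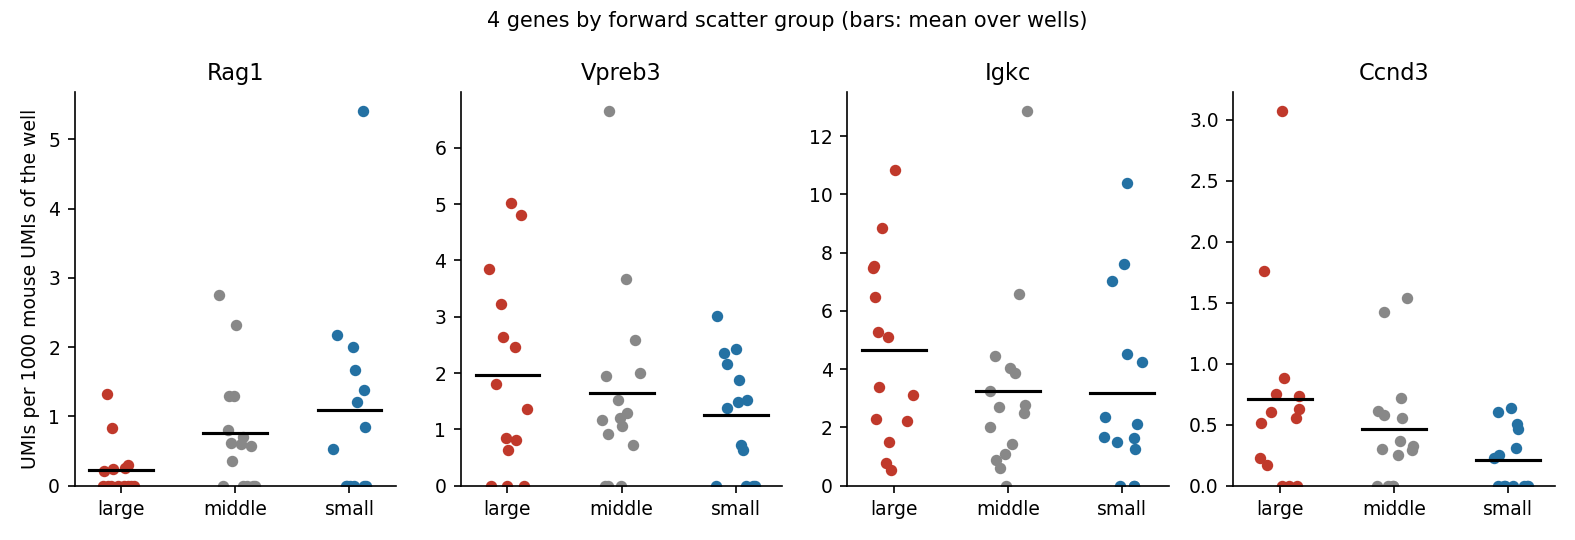
UMIs of Rag1, Vpreb3, Igkc and Ccnd3 per 1000 mouse UMIs of each well (y axes) in the large (n = 14), middle (n = 15) and small (n = 14) wells, 1 point a well, with a bar at the mean over wells. Most large wells lie at or near 0 for Rag1, and the groups overlap for all 4 genes.

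Wells with the B220 and MHC class II levels of mature B lymphocytes were found at both ends of the size range. Of the 43 wells 8 had a B220 fluorescence of 2000 or more, namely A14 among the large wells, A19, A21, B10 and B20 among the middle wells and A6, B16 and B23 among the small wells. In these 8 wells MHC class II transcripts made up a median of 2.13% of the mouse UMIs, against 0.0613% in the other 35. The surrogate light chain list, mostly Vpreb3, had 4 UMIs in the 8 wells and 201 in the 35 (median shares 0% and 0.152% of the mouse UMIs). The recombination list had 4 and 94 UMIs (median shares 0% and 0.0576%, highest 0.105% and 0.596%). The mature B list was even between large and small wells, at 255 and 183 UMIs (log2 ratio 0.06, -0.22 to 0.34), and MHC class II at 205 and 155 (-0.02, -0.33 to 0.29). These sums stood on single wells: A14 held 102 of the 205 and A6 held 95 of the 155, and the log2 ratio of MHC class II was -0.90 without A14 and 1.17 without A6. Within the list, Cd74, the invariant chain, had 43 UMIs in A14 and 51 in A6. Ighd, which encodes IgD, had 17 of its 25 UMIs in A14. Well B17, large and with the highest CD44 fluorescence (3811), held 21 of the 30 Ms4a1 UMIs and 14 of the 40 Cd52 UMIs of the large wells. Cd52, a small surface glycoprotein, had a log2 ratio of 1.44 (0.45 to 2.55), and 0.97 without B17. Well B2, the highest in forward scatter, had a CD3 fluorescence of 7905, 36 UMIs of B lymphocyte markers and 48 of MHC class II. T lymphocyte markers had 3 UMIs in the large and 4 in the small wells.

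Growth and resting programs differed little or had wide intervals. Cytosolic ribosomal proteins had 1702 and 1139 UMIs (log2 ratio 0.16, 0.05 to 0.27, and -0.06 without A4), with 48 members higher in the large and 26 higher in the small wells. Of all genes with a UMI, 50.2% were higher in the large wells. Well A4, with 21.7% of the small group's UMIs, had the lowest ribosomal share of the 43 wells (1.21%). Oxidative phosphorylation was at 0.21 (-0.03 to 0.45), nucleolar ribosome biogenesis at -0.01 (-0.54 to 0.53), glycolysis at -0.01 (-0.95 to 0.96), nucleotide synthesis at -0.24 (-0.91 to 0.44), translation factors at -0.04 (-0.29 to 0.21), heat shock chaperones at -0.11 (-0.48 to 0.27) and the mitochondrial genome at 0.04 (-0.07 to 0.15; -0.45 without B1). The nucleotide synthesis sum holds the row of Coasy, a different gene, in place of Ppat. Within the nucleolar list Npm1, a histone chaperone and ribosome assembly factor, stood apart with 32 UMIs in 8 large wells and 7 in 5 small wells (1.77, 0.57 to 3.20), while Ncl, nucleolin, had 13 and 8. The quiescence list was at 0.14 (-0.18 to 0.46). In it Btg1 and Btg2, which restrain proliferation, had 28 and 18 UMIs and 23 and 20 UMIs in the large and small wells, and Zfp36l1, an mRNA decay factor, had 21 and 6 (1.39, 0.03 to 2.98).

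**Figure D5:**
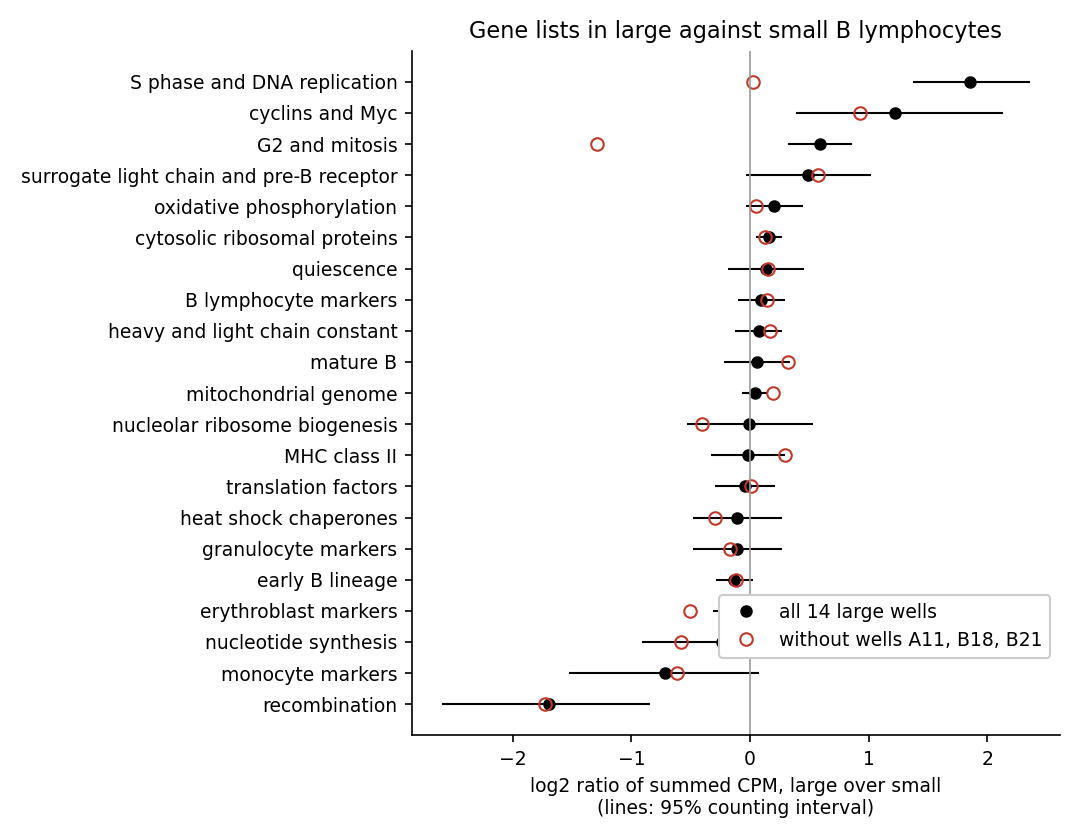
Log2 ratio of summed CPM, large over small wells (x axis), for the gene lists with at least 50 UMIs (y axis); filled points are all 14 large wells with 95% counting intervals, and open red circles leave out A11, B18 and B21. The S phase list moves from 1.85 to 0.02 and the G2 and mitosis list from 0.59 to -1.29, whereas the recombination list stays near -1.7.

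Over all genes, 620 had at least 20 UMIs in the large and small wells together. Of these 43 were at least 2-fold higher in the large wells (6.94%) and 33 at least 2-fold higher in the small wells (5.32%), with sums below 3 UMIs set to 3, and the median log2 ratio was 0.03. Of the S phase list 1 member reached 20 UMIs, Pcna, and it was higher in the large wells. Of 8 such members of the G2 and mitosis list 4 were higher in the large and none in the small wells. Of 45 such ribosomal protein genes 3 were higher in the large and none in the small wells, and of 21 early B lineage genes 2, Tcf4 and Xrcc6, were higher in the small wells.

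The 10 highest of these genes with a UMI in at least 4 large wells were Top2a, Epn1, Npc2, Trir, Mob1a, Hist1h2ap, Pcna, Anp32b, Herpud1 and Npm1. Several of them were spread over wells that held few cell cycle transcripts. The rule asked for 4 large wells, so a UMI outside A11, B18 and B21 was built in. These 10 genes and the 10 lowest were picked by the ratios given here, and their intervals take no account of that choice. Epn1, an adaptor of clathrin-mediated endocytosis, had 18 UMIs in 12 of 14 large wells, at most 3 in any of them, and 3 UMIs in 3 small wells (log2 ratio of the floored sums 2.16, 0.39 to 4.57). Trir, an RNase found with the telomerase RNA, had 18 UMIs in 10 large wells and 3 in 2 small wells. Npc2, the lysosomal cholesterol carrier, had 18 in 8 and 2 in 2, and Mob1a, a coactivator of Hippo pathway kinases, 17 in 8 and 3 in 2. Herpud1, part of the degradation machinery of the endoplasmic reticulum, had 23 UMIs in 11 large wells and 5 in 5 small wells (1.78, 0.35 to 3.53). These genes are not restricted to B lymphocytes: Epn1 was in 75.0% of erythroblast wells and Mob1a in 66.7% of granulocyte wells. Anp32b, a histone-binding protein, had 23 and 5 UMIs, 7 of the 23 in B21. Dek, a chromatin protein, and Fam129c, a B lymphocyte gene, were chosen after their values were seen, with 54 and 12 UMIs (1.75, 0.83 to 2.79) and with 55 and 16 UMIs (1.36, 0.54 to 2.26). Dek had 21 of its 54 UMIs in A11, whereas Fam129c was in 12 large wells with at most 10 in any of them. Pclaf, which binds the clamp encoded by Pcna and was also chosen after its values were seen, had 25 UMIs in 3 large wells and 1 in the small wells, but missed the 4 wells that the naming rule asked for.

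The 10 genes most in favour of the small wells were Rag1, Crebrf, Senp6, Tcf4, Mgea5, Cyfip2, Il16, Dmxl1, Zfc3h1 and Cbfa2t3, and apart from Rag1 all had 20 UMIs or fewer in the small wells. Crebrf, a regulator of a stress-response transcription factor, had 7 UMIs in 6 large wells and 20 in 10 small wells (log2 ratio -1.94, -3.42 to -0.64). Tcf4, an E protein, had 7 and 18 UMIs (-1.78, -3.29 to -0.46), 8 of the 18 in A4; the log2 ratio was -1.29 without A4 and -2.41 without B1. Senp6, a SUMO protease, had 7 and 18 as well, 6 of the 18 in A4. Mgea5, which removes O-GlcNAc from proteins, had 8 UMIs in 6 large wells and 19 in 7 small wells (-1.67, -3.07 to -0.41). Il16, a cytokine precursor, had 6 and 14 UMIs, 5 of the 14 in B15. Cyfip2, of the actin-regulating WAVE complex, had 6 and 14 UMIs, but 10 of the 14 were in A4 and its log2 ratio of -1.64 was -0.19 without that well. The 3 genes with the most UMIs were even or nearly so: Gm42418 at -0.01 (-0.05 to 0.03), Mir6240 at 0.01 (-0.14 to 0.16) and mt-Rnr2 at 0.17 (0.03 to 0.32), with -0.33 without B1.

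Markers of other cells, apart from those of erythroblasts, had few UMIs. Granulocyte markers had 138 and 111 UMIs in the large and small wells (log2 ratio -0.11, -0.48 to 0.27), in all 14 wells of each group, with S100a8 at 26 and 28 UMIs and S100a9 at 45 and 30. Monocyte markers had 26 and 32 UMIs (-0.72, -1.53 to 0.07). Plasma cell markers had 21 and 9 (0.80, -0.39 to 2.11), stem and progenitor markers 6 and 10, natural killer markers 0 and 1, and Atp1b1 (22 and 22) was the 1 plasmacytoid dendritic marker with a UMI among 9 measured. In the small well B6 granulocyte and erythroblast markers made up 3.92% and 18.6% of the mouse UMIs. The part of these transcripts in the comparison was not tested.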

How the data were processed

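Single sorted cells were profiled with CEL-seq2, a 3′ protocol with UMIs, in 1 plate. The authors deposited UMI counts per gene and well, not normalised. According to the methods, *scPipe* aligned reads, assigned them to exons, demultiplexed the designed barcodes and collapsed UMIs; the aligner version, genome build, annotation and strand setting were not given in the sources used here. Column names gave the well of 374 samples, and 9 other columns were not used. ERCC rows (74) were kept out of the 19829 mouse genes. Symbols and loci came from GENCODE M21 (GRCm38), and the promoter windows from RefSeq (GRCm38.p6), which may differ from the authors' build. In 27 gene lists 364 of 391 symbols had a row. Among these, Ppat of the nucleotide synthesis list was matched through a synonym to Coasy, a different gene. A gene of 2 lists is not reported here and was left out of their sums after the results had been seen.

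Counts were summed over the 14 wells of each group and scaled to CPM. With 1 sample a group no test, p-value or standard error was computed. Ratios have exact conditional binomial intervals and sums exact Poisson intervals, at 95%, for counting error only. Shares of wells have exact binomial intervals at 95%, which are for the draw of cells from 1 mouse. Ranked ratios, and fold values of genes with no UMI in 1 group, used a floor of 3 UMIs for the group. Such fold values are not limits for counting error. Depth was 485 to 8330 mouse UMIs a well, so most genes had few UMIs. No doublet caller was run. The named genes were the 10 highest and 10 lowest ratios among genes that reached 20 UMIs in all and were detected in 4 or more wells of the higher group, the 3 most abundant genes, the antigen genes, and list members with at least 10 UMIs or standing for a role. The groups, lists and alternatives were chosen with earlier results of these data known. Python 3 with numpy, scipy and pandas was used, and edgeR 4.0.16 gave the TMM factors of an alternative. The interval and fold code was tested on simulated counts.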

Additional observations from a re-analysis of the deposited data

Results flagged for a closer look

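Outside the comparison, 2 middle wells exceeded the highest small well in cell cycle transcripts. The S phase and DNA replication list made up 0.517% of the mouse UMIs in B22 (17 UMIs) and 0.461% in B24 (15 UMIs), against at most 0.365% in any small well. The G2 and mitosis list made up 1.40% in B22 (46 UMIs), against at most 1.24%. Erythroblast markers made up 13.9% of the mouse UMIs in B22 and 9.90% in B24. At the ratios of the erythroblast wells these markers go with 18.7 and 13.1 UMIs of the S phase list and, in B22, with 56.5 UMIs of the G2 and mitosis list. The part of erythroblast transcripts in these values was not tested.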

How the results depend on the processing

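No paired analysis was possible because the wells of the 2 groups are single cells of 1 mouse that share no pairing, and no test was made. The recombination list stayed negative under every alternative run for it (log2 ratio -2.13 to -1.24; with 1 well left out, -2.14 to -1.31). The S phase list lost its difference without A11, B18 and B21 (0.024, -0.61 to 0.66). It was at 1.29 with each well thinned to 1000 UMIs, and 1.42 to 2.01 with 1 well left out. The G2 and mitosis list was at -1.29 without those 3 wells, 1.24 without A4 and B6, 1.64 with 10 wells a group, 0.96 in row A and 0.92 with median-of-ratios factors, and between -0.17 (without A11) and 1.17 (without A4) with 1 well left out. The surrogate light chain list was at -0.039 with 10 wells a group (0.28 to 0.60 with 1 well left out). The mature B list was at -0.24 with 10 wells a group, -0.25 without A4 and B6 and 0.39 with median-of-ratios factors (-0.25 to 0.30 with 1 well left out). Mean mouse UMIs ranged from a log2 ratio of 0.33 to 0.67, and those relative to ERCC from 0.29 to 0.62, with 1 well left out, and were -0.18 and -0.02 in row A.

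Genes at least 2-fold higher in the large and in the small wells numbered 43 and 33. They numbered 26 and 17 with 10 wells a group, 28 and 7 in row A, 22 and 21 in row B, 98 and 13 with median-of-ratios factors, 5 and 5 when thinned, 5 and 2 at 50 or more UMIs, 174 and 395 with no minimum and 7 and 1 at 4-fold, and 37 to 55 and 25 to 40 with 1 well left out. The median-of-ratios factors shift all genes by 0.33 towards the large wells, and TMM factors by 0.08. Fewer genes reached the minimum where wells were removed or thinned. Other causes were not tested. The alternatives without A11, B18 and B21, without A4 and B6, and all for the recombination list were chosen after seeing the data. The data are limited by counting error, by single wells that move a list past its counting interval, and by the lack of a second mouse.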
